A study of Mus musculus with 20 samples.

Results

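The surface ectoderm of the embryonic day 9 (E9) mouse was compared, gene by gene, with the dermal mesenchyme of embryonic day 13 (E13). The comparison used 6 of the 20 samples of the series, 12 of which came with a table of RNA counts, and covered every gene of those tables: 23432 gene symbols, of which 13046 had enough counts to be tested. The 3 E9 libraries, numbered 1, 2 and 4, were made from skin cells of embryos heterozygous for a ΔNp63-GFP knock-in, dissociated with collagenase and trypsin and sorted for GFP. The reporter is driven from the locus of ΔNp63, the p63 isoform of stratified epithelia, so the E9 cells were chosen for activity of an epithelial gene. The 3 dermal libraries, numbered 1 to 3, came from E13 skin of the same Het genotype, dissociated in the same way and sorted by antibody for CD140a, the PDGF receptor alpha encoded by Pdgfra. The 3 libraries of E13 Het epidermis, sorted for GFP as at E9, are given beside them where they show whether an E9 level was kept. All embryos carried the knock-in allele, so no library is from a wild-type animal, and the labels name no treatment. The E9 and E13 epidermal RNA had been depleted of ribosomal RNA, whereas the dermal RNA had been selected with oligo(dT). Tissue, stage, sorting method and RNA selection all change together between E9 epidermis and E13 dermis, and their parts in a difference cannot be told apart.

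At this stage the embryo is covered by a single layer of surface ectoderm, a simple epithelium whose cells are held together by tight junctions, adherens junctions and desmosomes and rest on a basement membrane. It later stratifies: a basal layer with its own keratins and hemidesmosomes forms, covered for a time by the flat cells of the periderm and then by suprabasal layers. ΔNp63, the AP-2 factors and the grainyhead-like factors are known regulators of this tissue. The dermis of the back comes largely from the somites, and its fibroblasts are known for collagens, small leucine-rich proteoglycans and the transcription factors Twist2, Prrx1 and Tbx15. The question put to the data was which epithelial genes already mark the early covering of the embryo.

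The E9 libraries held 4119169 to 6479564 counts in genes and the dermal libraries 16931664 to 33386872. Levels are given as counts per 1000000 gene counts (CPM) after scaling by trimmed mean of M-values (TMM), in the order of replicates 1, 2 and 4 for E9 and 1, 2 and 3 for the E13 groups. Fold changes are E9 over dermis on the log2 scale with their standard errors (n = 3 per group), and those between the epidermal stages are E13 over E9. A total of 3 counts over a group, the limit that a count of 0 allows, is 0.17 CPM at E9 and 0.051 CPM in the dermis, and covers counting error only. Where a group had no count the fold is a lower bound against that limit, and where it had 1 to 3 counts the ratio of pooled counts is given with its counting interval. Reads outside annotated genes made up 43.8% to 52.9% of the E9 tables and 11.6% to 14.2% of the dermal tables. Of the gene counts, the ribosomal RNA precursor Rn45s held 4.45% to 9.69% at E9 and 11.2% to 30.7% in the dermis. E9 replicate 4 stood apart from the other E9 libraries: across genes its rank correlation with replicates 1 and 2 was 0.901 and 0.908, whereas those 2 correlated at 0.958. It also held the highest E9 levels of muscle and globin genes and the lowest levels of many Hox genes. Counts of calls with and without it are given for red cell and Hox genes, and for muscle the call of Ttn alone. No source states whether the libraries of a group came from separate litters, so p-values measure the spread between these samples.

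The sorted populations were first checked against the genes used to sort them. Trp63, which encodes p63, stood at 269.6, 211 and 118 CPM at E9, at 504, 589.6 and 439 CPM in E13 epidermis and at 0.445, 0 and 2.08 CPM in the dermis. Every E9 library lay above every dermal one and below every library of E13 epidermis (log2 fold change 1.36 ± 0.27, adjusted p = 0.0164). That stage difference was lost without E9 replicate 2 (adjusted p = 0.0789) or E13 epidermis replicate 2 (adjusted p = 0.0713), or with all 9 libraries in 1 fit (adjusted p = 0.247). Pdgfra, the receptor recognised by the dermal sort, stood at 976, 624 and 756 CPM in the dermis and at 44.7, 19.6 and 24.9 CPM at E9 (log2 fold change -4.71 ± 0.33). Since both genes were used to collect the cells, their difference between the tissues describes the sorts. Pdgfra was still detected in all 3 E9 libraries, while Lum, Dcn, Twist2 and Tbx15, other genes of the dermis, had no count in any of them. Most dermal genes did have counts at E9. Only 4 of the 29 genes of the dermal matrix list and 5 of the 30 dermal and mesenchymal factors had none. The matrix list summed to 2361 to 2615 CPM over the E9 libraries. The E9 libraries held the junction and simple keratin genes of an epithelium. Of genes of a later epidermis, Krt1, Lor and Ivl had 0 counts in all of them, while others, such as Sfn, were detected. Of 17 suprabasal and periderm genes 10 had no E9 count, where the limit is 0.17 CPM, and 8 had no dermal count.

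Of the 13046 genes tested with edgeR's quasi-likelihood test, 41.2% passed an adjusted p of 0.05, 19.1% being higher at E9 and 22.2% lower. For 57% of them no E9 library overlapped a dermal one. Between E13 and E9 epidermis, 7.29% of 12215 genes passed, 4.49% being higher at E13 and 2.79% lower, and libraries did not overlap for 30.3%. Of the genes called between E9 epidermis and dermis, 657 differed by 10-fold or more in favour of E9 and 754 in favour of the dermis. The median log2 fold change of all genes tested was -0.09, and the smallest log2 difference called was 0.39. With raw library totals in place of TMM that median moved to 0.32, and the called genes split into 3481 higher and 1840 lower, against 2487 and 2894 with TMM. In sorted bulk cells a gene can be lower because fewer cells carry it or because each cell carries less, and these cannot be told apart.

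Krt8, Cldn6, Lin28a, Fermt1 and Col3a1 are the 5 genes that define the contrast, and since they were named for it their E9 and dermal values are a description. The RefSeq annotation of GRCm38.p6 places Krt8 on chromosome 15 from 101996711 to 102004342, Cldn6 on chromosome 17 from 23679348 to 23682446, Lin28a on chromosome 4 from 134003330 to 134019196, Fermt1 on chromosome 2 from 132904177 to 132946036 and Col3a1 on chromosome 1 from 45311538 to 45349706, and none overlaps another counted gene. Krt8, the type II keratin of simple epithelia, stood at 302, 373 and 626 CPM at E9 and 0.334, 0 and 0 CPM in the dermis. The tight junction gene Cldn6 stood at 216, 229.8 and 192 CPM at E9 with no dermal count (at least 4207-fold higher at E9). Lin28a, an RNA-binding protein of early embryos that blocks maturation of let-7 microRNAs, stood at 369.7, 373 and 484 CPM and likewise had no dermal count (at least 7842-fold higher at E9). Fermt1, the integrin activator kindlin-1, stood at 134, 165 and 118 CPM at E9 against 1 count in all dermal libraries together (a pooled ratio of 8235 with a 95% counting interval of 1477 to 325380.0 in favour of E9). The collagen gene Col3a1 ran the other way, at 15207, 10073 and 12378 CPM in the dermis and 15.4, 12.8 and 32.7 CPM at E9 (log2 fold change -9.29 ± 0.44). No E9 library overlapped a dermal one for any of the 5, which held for 57% of all genes tested. The later course of the 5 in the epidermis differed. Lin28a was lower in every library of E13 epidermis than in any E9 library, at 0, 0.476 and 0.658 CPM (log2 fold change -9.87 ± 0.39, adjusted p = 7.01e-07). Cldn6 was also lower there, at 90.7, 43.5 and 108 CPM (log2 fold change -1.40 ± 0.29, adjusted p = 0.0179), a call lost without any one E9 library (adjusted p = 0.0518 to 0.0779). Fermt1 stood at 172, 170.4 and 135 CPM in E13 epidermis and did not pass the test between stages (adjusted p = 0.647). Krt8 stood at 65.5, 21.0 and 606 CPM there, with replicate 3 about as high as at E9 and the others far lower.

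**Figure D1:**
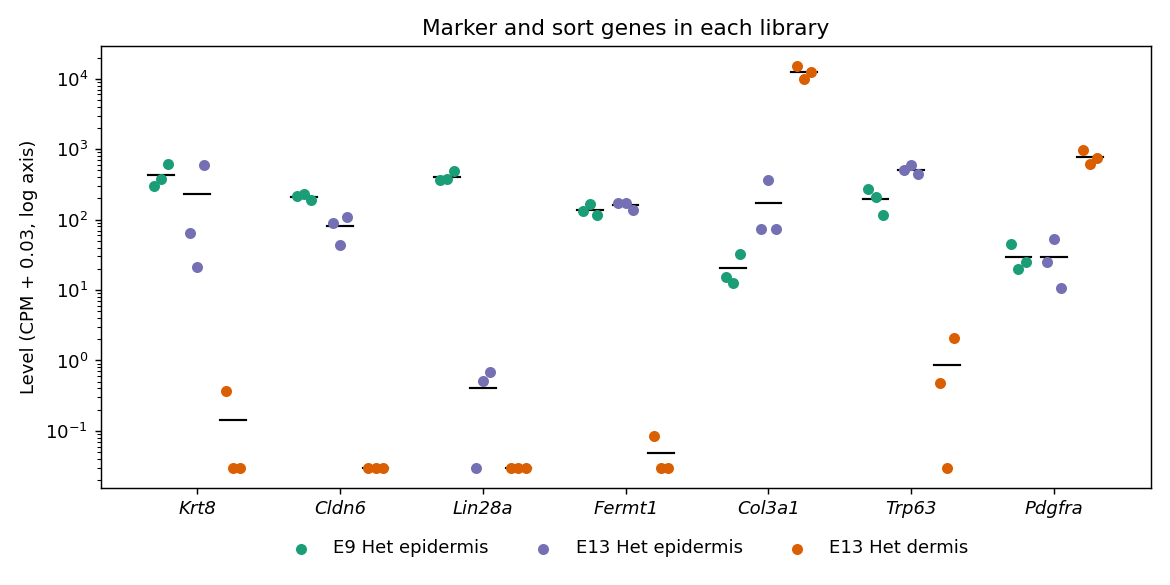
Levels of the 5 marker genes and of the 2 genes used to sort the cells, in CPM after TMM scaling on a log axis with 0.03 added so that zeros can be drawn, in each library of E9 Het epidermis, E13 Het epidermis and E13 Het dermis (3 points a group, bars at the group means). Krt8, Cldn6, Lin28a and Fermt1 lie far above the dermal libraries at E9 and Col3a1 far below, while Lin28a reads at most 0.658 CPM in E13 epidermis.

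Among the 10 genes with the largest fitted fold change toward E9 were Lin28a, Cldn6, Sall4, Sall1, Lrp2, Sp8, Fat2, Lad1 and Ap1m2. Since a gene without dermal counts has a fold that depends on the prior count of the fit, the order among them carries little. The zinc finger gene Sall4 stood at 153, 192 and 144 CPM at E9 and 0, 0.953 and 0.987 CPM in E13 epidermis, and its relative Sall1 at 125, 114 and 108 CPM at E9 and 0, 1.19 and 0.987 CPM in E13 epidermis. Sp8, a zinc finger factor known from the ectoderm of the limb bud, stood at 95.1, 75.1 and 49.7 CPM at E9 (at least 1508-fold higher at E9, adjusted p = 3.31e-06) and 0, 1.91 and 0.164 CPM in E13 epidermis. These 3 factors had no dermal count and at most 1.91 CPM in any library of E13 epidermis. The endocytic receptor gene Lrp2 varied more, with 198, 137 and 436 CPM at E9 and 13.8, 5.60 and 61.7 CPM at E13, highest in E9 replicate 4. Fat2, an atypical cadherin of stratified epithelia, took the opposite course, from 75.5, 97.6 and 46.6 CPM at E9 to 320.3, 218 and 166 CPM in E13 epidermis, with no overlap. Lad1, which encodes the basement membrane protein ladinin, stood at 49.0, 75.1 and 50.6 CPM at E9 (at least 1139-fold higher at E9, adjusted p = 3.43e-06) and 41.2, 36.4 and 44.7 CPM at E13.
On the dermal side the same rule named Lum, Dcn, Vcam1, Agtr2, Tbx15, Twist2, Thy1, Lrrc17, Ogn and Hspa1a, none of which had a single count at E9. Lum, Dcn and Ogn encode small leucine-rich proteoglycans of the collagen matrix, and Lum stood at 1101, 1498 and 1358 CPM in the dermis (at least 7692-fold lower at E9, adjusted p = 1.02e-07). The adhesion gene Vcam1 stood at 771, 644 and 623 CPM (at least 3956-fold lower at E9, adjusted p = 1.02e-07). The angiotensin receptor gene Agtr2 stood at 523, 708 and 529.8 CPM (at least 3319-fold lower at E9, adjusted p = 1.74e-07). Hspa1a, a heat shock gene, has a near-identical neighbour, Hspa1b, so reads of the pair may have been split or dropped and its level is uncertain.

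The keratins and tight junctions of a simple epithelium were largely present at E9. Of 22 tested members of the list of simple keratins, claudins and other tight junction genes, 21 were higher at E9 and 1 was lower, beside 19.1% and 22.2% of all genes. The median log2 fold change of the list was 9.12, or 8.27 with genes at 0 to 3 counts held at their bounds, against -0.09 for all genes. Krt18, the partner of Krt8 in simple epithelial filaments, stood at 377, 383 and 406 CPM at E9 and 0.501, 0 and 0.867 CPM in the dermis (adjusted p = 1.31e-06). Krt7 stood at 159, 129.6 and 148 CPM against 0.334, 0 and 0 CPM (adjusted p = 1.72e-06). Krt19 stood at 99.2, 143 and 127 CPM against 1.06, 0 and 1.63 CPM (adjusted p = 7.35e-05). The E9 libraries lay close together for Krt7, Krt18 and Krt19, while Krt8 was highest in replicate 4, and none came near a dermal library. In E13 epidermis the simple keratins varied widely instead: Krt18 read 28.5, 25.1 and 398 CPM, with replicate 3 near the E9 level and the others well below it. Between the stages neither Krt18 (adjusted p = 0.650) nor Krt8 (adjusted p = 0.796) passed the test, whereas without E13 epidermis replicate 3 both were lower at E13 (adjusted p = 1.39e-06 for Krt18 and 0.0319 for Krt8).
The claudins, which seal the paracellular space, were mostly higher at E9 than in the dermis. Between the epidermal stages, 2 of 23 tested members of the whole list were higher at E13, 3 lower and 18 not called, beside 4.49% and 2.79% of all genes. Cldn4 stood at 121, 99.8 and 114 CPM at E9 and 0.223, 0 and 0 CPM in the dermis (adjusted p = 9.11e-07), and at 98.8, 81.1 and 174 CPM in E13 epidermis. Cldn7 stood at 62.996, 68.7 and 39.9 CPM against 0, 0.333 and 0.0693 CPM (adjusted p = 6.68e-06). Cldn3 and Cldn8 had no dermal count: Cldn3 stood at 25.7, 18.7 and 14.5 CPM at E9 (at least 402-fold higher at E9, adjusted p = 8.81e-05) and Cldn8 at 30.7, 20.8 and 36.1 CPM (at least 565-fold higher at E9, adjusted p = 2.40e-05). Cldn1, a claudin of the later epidermal barrier, was the exception. It stood at 2.74, 0.852 and 0 CPM at E9, below each of the dermal values of 12.4, 11.4 and 13.6 CPM (adjusted p = 0.0272), and at 24.1, 26.1 and 29.6 CPM in E13 epidermis. Its lower call was lost without E9 replicate 2 (adjusted p = 0.0778), without any one dermal library (adjusted p = 0.0710 to 0.0848) or with raw library totals (adjusted p = 0.0519).
The scaffold genes of the junction differed by degree. Tjp3 (ZO-3) had 1 dermal count against 79.7, 83.3 and 48.3 CPM at E9 (a pooled ratio of 4291 with a 95% counting interval of 769 to 169600.0 in favour of E9, adjusted p = 7.04e-07). Tjp1 (ZO-1), which many tissues use, stood at 450.3, 459 and 423 CPM against 179, 154 and 139 CPM (log2 fold change 1.49 ± 0.15, adjusted p = 3.98e-05). Cgn, cingulin, which links the junction to the cytoskeleton, stood at 126, 107 and 105 CPM against 1.45, 0 and 0 CPM (adjusted p = 0.000449), its dermal counts all coming from replicate 1. F11r, the junctional adhesion molecule A, stood at 142, 154 and 116 CPM at E9 and 1.06, 0.666 and 1.01 CPM in the dermis (log2 fold change 7.18 ± 0.29, adjusted p = 1.02e-07), and was lower in E13 epidermis, at 28.5, 36.1 and 58.7 CPM (log2 fold change -1.74 ± 0.28, adjusted p = 0.00420). The tricellular junction gene Marveld2 stood at 27.6, 34.6 and 41.0 CPM (at least 653-fold higher at E9, adjusted p = 1.22e-05) and Ocln, occludin, at 18.4, 16.7 and 29.0 CPM (at least 402-fold higher at E9, adjusted p = 7.06e-05), both with no dermal count. Epcam, a surface protein of simple epithelia, stood at 226, 231 and 255 CPM at E9, 0.445, 0.750 and 2.88 CPM in the dermis (adjusted p = 2.45e-05) and 198, 180.4 and 217 CPM in E13 epidermis. The Epcam libraries of the 2 stages were close.

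All 16 members of the list of apical polarity, apical transport and membrane protease genes were higher at E9, beside 19.1% of all genes. Their median log2 fold change was 7.00. Summed over the list, E9 libraries held 781 to 815 CPM and dermal libraries 8.35 to 10.7 CPM. Ap1m2, the epithelial subunit of a clathrin adaptor, stood at 49.4, 44.3 and 81.1 CPM with no dermal count (at least 1094-fold higher at E9, adjusted p = 5.30e-06). The protease gene St14, matriptase, stood at 96.3, 106 and 52.1 CPM against 2 dermal counts (a pooled ratio of 2599 with a 95% counting interval of 718 to 21477 in favour of E9, adjusted p = 1.35e-06). Its inhibitors were present with it. Spint1 stood at 65.7, 66.1 and 97.3 CPM against 0.167, 0.416 and 0 CPM (adjusted p = 6.82e-06), and Spint2 at 119, 112 and 137 CPM against 4.01, 3.66 and 2.91 CPM (log2 fold change 5.13 ± 0.25, adjusted p = 3.24e-07). Prss8, prostasin, a protease of the same system, stood at 19.5, 55.4 and 53.5 CPM against 0.223, 0.666 and 0.0347 CPM (adjusted p = 0.000112), lowest in E9 replicate 1. Among polarity genes, Llgl2 stood at 137, 125 and 107 CPM against 0.723, 0 and 0 CPM (adjusted p = 6.02e-05). Pard6b stood at 54.5, 60.1 and 58.8 CPM against 0.946, 0.916 and 0 CPM (adjusted p = 0.000412). Prkcz, the atypical protein kinase C that binds it, stood at 42.4, 42.6 and 53.0 CPM against 1.002, 1.08 and 2.22 CPM (log2 fold change 4.96 ± 0.44, adjusted p = 1.63e-05). Rab25, a small GTPase of apical recycling, was closest to the threshold, at 10.3, 8.35 and 14.9 CPM against 0, 0 and 1.49 CPM (adjusted p = 0.0405). Its call was lost without any one E9 library or without dermal replicate 1 or 2 (adjusted p = 0.0634 to 0.0835). Mal2 (adjusted p = 0.0134) lost its call without E9 replicate 1 (adjusted p = 0.103), and the other 14 members kept theirs without each library in turn.

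Adherens junctions and desmosomes were both represented at E9, with some desmosomal genes at low levels. Of 15 tested members, 14 were higher and none lower, beside 19.1% and 22.2% of all genes, with a median log2 fold change of 6.38. Cdh1, E-cadherin, stood at 557, 488 and 476 CPM at E9, 0.501, 0 and 0.0347 CPM in the dermis (adjusted p = 9.43e-07) and 729, 543 and 765 CPM in E13 epidermis. Cdh3, P-cadherin, stood at 463, 464 and 286 CPM against 50.8, 43.1 and 33.2 CPM in the dermis (log2 fold change 3.26 ± 0.24, adjusted p = 5.20e-06). Between the epidermal stages neither Cdh1 (adjusted p = 0.135) nor Cdh3 (adjusted p = 0.448) passed the test, though Cdh1 was called higher at E13 without E13 epidermis replicate 2 (adjusted p = 0.0489). The desmosomal cadherin gene Dsg2 stood at 205, 175 and 198 CPM against 2 dermal counts (a pooled ratio of 5694 with a 95% counting interval of 1575 to 47038 in favour of E9, adjusted p = 1.02e-07). Its partner Dsc2 stood at 112, 93.9 and 82.0 CPM against 1.06, 0.916 and 0.901 CPM (log2 fold change 6.63 ± 0.30, adjusted p = 2.06e-07). The plakophilin gene Pkp2 stood at 16.2, 16.5 and 25.6 CPM with no dermal count (at least 367-fold higher at E9, adjusted p = 8.96e-05). Dsp, desmoplakin, which ties desmosomes to keratin, stood at 587, 505 and 492 CPM at E9, 7.79, 1.92 and 8.73 CPM in the dermis (log2 fold change 6.38 ± 0.49, adjusted p = 2.52e-05) and 1986, 1638 and 2148 CPM in E13 epidermis (log2 fold change 1.87 ± 0.13, adjusted p = 3.69e-05).
Dsg3, Pkp1 and Dsc3, desmosomal genes of the stratified epidermis, were low at E9. Dsg3 had no count in any E9 or dermal library and stood at 78.9, 31.1 and 34.5 CPM in E13 epidermis (at least 257-fold higher at E13, adjusted p = 0.000423). Pkp1 stood at 2.74, 0.852 and 0 CPM at E9 and 198, 89.5 and 97.0 CPM at E13 (adjusted p = 0.00134). Dsc3 stood at 2.33, 3.92 and 0 CPM at E9, below each of the dermal values of 9.07, 4.41 and 4.89 CPM without passing the test (adjusted p = 0.351), and at 42.5, 55.4 and 28.0 CPM at E13. Its change between the stages (adjusted p = 0.0162) was lost without E9 replicate 1 (adjusted p = 0.0975) or E13 epidermis replicate 2 (adjusted p = 0.0747). The envelope genes that link to desmosomes were in place earlier. Ppl, periplakin, stood at 126, 135 and 195 CPM at E9 against 0.556, 0 and 4.09 CPM (adjusted p = 0.000819) and Evpl, envoplakin, at 25.7, 43.4 and 34.5 CPM against 1.22, 2.58 and 1.18 CPM (log2 fold change 4.40 ± 0.50, adjusted p = 8.29e-05). Between E9 and E13 epidermis, 9 of 17 tested members of this list were higher at E13 and 1 lower, beside 4.49% and 2.79% of all 12215 genes tested between the stages.

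Members of the basal layer list varied at E9: Itga3, Itga6, Cd151 and Dst were higher than in the dermis, while Krt14, Itgb4 and Col17a1 were not called. Of 13 tested members, 9 were higher at E9, 1 lower and 3 not called, beside 19.1% higher and 22.2% lower among all genes. The median log2 fold change of the list was 2.57. Itga3, a laminin-binding integrin subunit, stood at 443, 442 and 391 CPM against 0.890, 0 and 2.53 CPM (adjusted p = 4.51e-05). Itga6, the integrin subunit of hemidesmosomes, was on both sides, at 177, 146 and 176 CPM at E9 and 62.8, 69.1 and 56.1 CPM in the dermis (log2 fold change 1.41 ± 0.17, adjusted p = 0.000130). The tetraspanin gene Cd151, whose product binds these integrins, stood at 79.6, 97.8 and 91.3 CPM against 12.2, 12.6 and 13.8 CPM (log2 fold change 2.79 ± 0.22, adjusted p = 8.52e-06). The linker gene Dst stood at 460.1, 493 and 376 CPM against 172, 95.5 and 134 CPM (log2 fold change 1.73 ± 0.22, adjusted p = 0.000169). Sdc1, a heparan sulfate proteoglycan of epithelia and mesenchyme, was the member lower at E9, at 143, 145 and 125 CPM against 256, 208 and 201 CPM (log2 fold change -0.69 ± 0.16, adjusted p = 0.00610), a call lost with raw library totals (log2 fold change -0.29).
Krt5 and Krt14, the paired keratins of basal keratinocytes, behaved unlike the simple keratins. Krt5 stood at 47.5, 32.5 and 29.6 CPM at E9 against 4.23, 2.25 and 0 CPM in the dermis (adjusted p = 0.0239), and at 1253, 995 and 1309 CPM in E13 epidermis (log2 fold change 5.01 ± 0.22, adjusted p = 1.50e-06). The call against the dermis was lost without E9 replicate 1 or 4 or dermal replicate 2 (adjusted p = 0.0605 to 0.0691) and with no filter on low counts (adjusted p = 0.112), while that between the stages was kept without each library. Krt14 stood at 5.08, 12.6 and 0 CPM at E9 and 1.95, 3.83 and 2.08 CPM in the dermis, with overlapping libraries (adjusted p = 0.520), and at 916, 791 and 507 CPM in E13 epidermis (adjusted p = 0.0187). The stage difference of Krt14 was lost without E9 replicate 1 or E13 epidermis replicate 1 or 2 (adjusted p = 0.0630 to 0.125). Krt15, another basal keratin, read 0.137, 0.170 and 13.1 CPM at E9, nearly all of it in replicate 4, and 242, 257 and 208 CPM at E13. Itgb4, the hemidesmosomal partner of Itga6, stood at 9.47, 12.8 and 13.8 CPM at E9, 1.67, 0 and 4.30 CPM in the dermis (adjusted p = 0.109) and 427, 358 and 265 CPM at E13 (log2 fold change 4.87 ± 0.25, adjusted p = 4.36e-06). DESeq2, limma voom and the fit of all 9 libraries called Itgb4 higher at E9 than in the dermis (adjusted p = 0.0338 to 0.0450). Col17a1, the hemidesmosomal collagen, stood at 5.90, 2.73 and 0 CPM at E9, 3.78, 0 and 1.49 CPM in the dermis (adjusted p = 0.784) and 282, 311 and 199.8 CPM at E13. Its stage difference (adjusted p = 0.00344) was lost without E9 replicate 2 (adjusted p = 0.0504). For Krt14, Krt15, Itgb4 and Col17a1 alike, every library of E13 epidermis lay more than 10-fold above every E9 library.

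**Figure D2:**
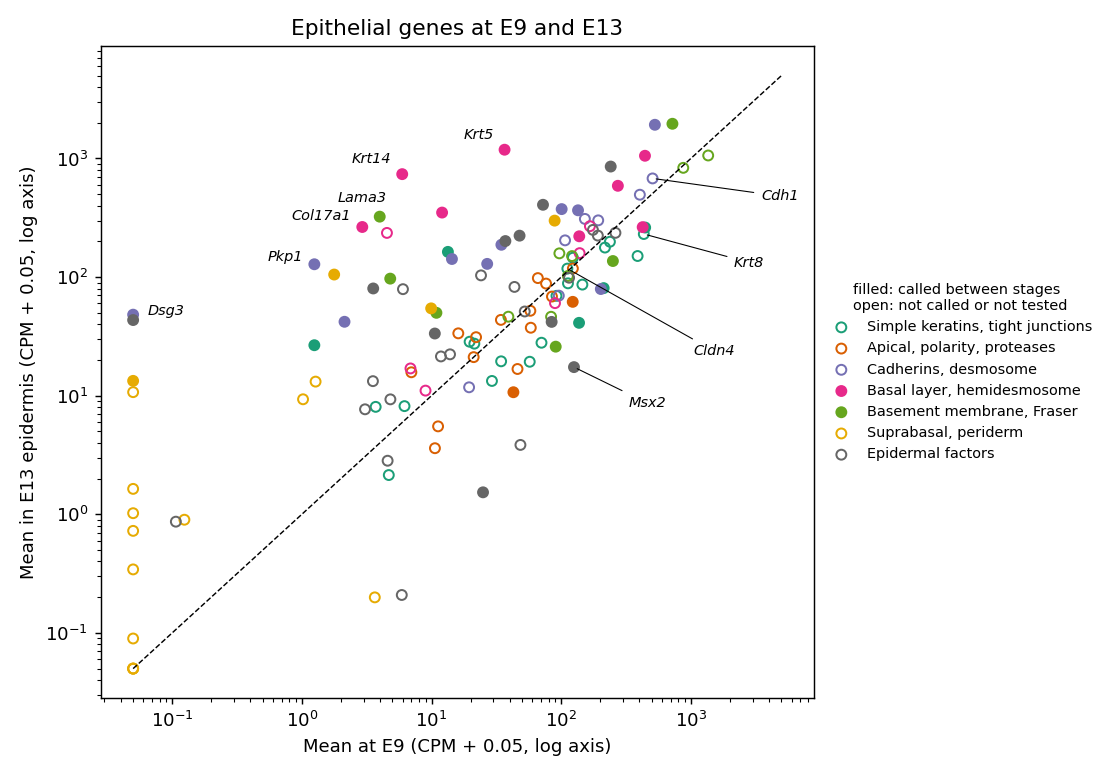
Mean level of each member of the 7 epithelial lists in E13 Het epidermis against E9 Het epidermis, in CPM on log axes with 0.05 added, coloured by list, with genes called between the stages drawn filled and the diagonal marking equal levels. Cdh1 and Cldn4 lie close to the diagonal, while Krt5, Krt14, Col17a1, Lama3, Dsg3 and Pkp1 lie far above it.

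Basement membrane genes were divided too. Of 13 tested members, 8 were higher at E9 and 2 lower, beside 19.1% and 22.2% of all genes, with a median log2 fold change of 2.12. Lama5, the laminin chain of early epithelial basement membranes, stood at 879, 940.0 and 803 CPM at E9, 1.89, 1.92 and 0 CPM in the dermis (adjusted p = 0.000118) and 858, 795 and 849 CPM in E13 epidermis. Lamb3 stood at 10.7, 11.4 and 10.5 CPM against 0.223, 0 and 0 CPM (adjusted p = 0.00272). Lama3, which encodes another chain of the laminin that anchors hemidesmosomes, stood at 5.63, 5.96 and 0.223 CPM at E9 and 0.390, 2.42 and 0.728 CPM in the dermis (adjusted p = 0.368), with overlapping libraries, and at 294, 381 and 295 CPM at E13 (log2 fold change 6.28 ± 0.64, adjusted p = 0.00161). Of these chains of that laminin, Lamb3 was therefore above the dermal libraries at E9 and Lama3 was not. Genes of the Fraser complex, which holds embryonic epidermis to dermis, were high at E9 relative to the dermis. Frem2 stood at 1207, 1483 and 1392 CPM against 1.17, 1.999 and 0.0347 CPM (adjusted p = 2.62e-05), and Fras1 at 719, 724 and 719.9 CPM against 46.3, 22.7 and 30.8 CPM (log2 fold change 4.44 ± 0.26, adjusted p = 1.13e-06). Frem1, the member known to be made by mesenchyme, was higher in the dermis, at 407, 299.6 and 295 CPM against 103, 105 and 63.7 CPM (log2 fold change -1.88 ± 0.22, adjusted p = 0.000116). Col7a1, the collagen of anchoring fibrils, stood at 519, 418 and 339 CPM in the dermis, 6.31, 2.38 and 5.57 CPM at E9 (log2 fold change -6.47 ± 0.33, adjusted p = 5.07e-07) and 132, 91.6 and 67.8 CPM in E13 epidermis (log2 fold change 4.34 ± 0.42, adjusted p = 0.000275).

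Most suprabasal and periderm genes had no count at E9 or too few to be tested. Of 17 members in the tables, 10 had no count in any E9 library, for which the limit is 0.17 CPM. In the dermis 8 of the 17 had no count, and in E13 epidermis 3. Only 4 had enough counts to be tested, of which 1 was higher at E9, beside 19.1% of all genes. That gene was Sfn, the 14-3-3 sigma protein of epithelia, at 101, 87.7 and 78.0 CPM at E9 against 0.501, 0 and 0.347 CPM in the dermis (log2 fold change 8.11 ± 0.53, adjusted p = 2.07e-06) and 353, 261 and 284 CPM at E13 (log2 fold change 1.75 ± 0.18, adjusted p = 0.000334). Krt17, a keratin of embryonic epidermis and periderm, stood at 2.06, 2.90 and 0.223 CPM at E9 and 158, 53.1 and 104 CPM at E13 (log2 fold change 5.84 ± 0.65, adjusted p = 0.000848). Krt10, the keratin of suprabasal cells, stood at 0.823, 0.852 and 2.005 CPM at E9 and 3.45, 4.16 and 4.82 CPM in the dermis (adjusted p = 0.248). Tgm1, a cross-linking enzyme of the cornified layer, stood at 6.45, 14.3 and 8.91 CPM at E9 against 1.89, 0 and 3.40 CPM (adjusted p = 0.139), above every dermal library without passing the test, though limma voom called it (adjusted p = 0.0494).

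Transcription factors known from epidermis were largely in place. Of 24 tested members, 20 were higher at E9, 1 lower and 3 not called, beside 19.1% higher and 22.2% lower among all genes. The median log2 fold change of the list was 5.76. The AP-2 factor gene Tfap2a stood at 284, 278 and 225 CPM at E9, 0.334, 0 and 0 CPM in the dermis (adjusted p = 9.26e-07) and 307, 201 and 200.1 CPM in E13 epidermis. Tfap2b stood at 261, 272 and 189.8 CPM at E9, 0.668, 0 and 0 CPM in the dermis (adjusted p = 1.91e-05) and 947, 859 and 759 CPM at E13 (log2 fold change 1.83 ± 0.16, adjusted p = 0.000163), a stage difference lost with all 9 libraries in 1 fit (adjusted p = 0.0566). Tfap2c stood at 62.0, 54.9 and 40.1 CPM against 2.28, 5.83 and 4.51 CPM in the dermis (log2 fold change 3.64 ± 0.41, adjusted p = 8.12e-05). No E9 library overlapped a dermal one for these 3 genes, as for 57% of all genes tested. Between the stages Tfap2a did not pass the test (adjusted p = 0.758). Grhl2, a grainyhead factor that regulates junction genes, stood at 205, 194 and 177 CPM at E9 and 229, 214 and 229 CPM at E13, against 3 dermal counts (a pooled ratio of 3804 with a 95% counting interval of 1300.5 to 18455 in favour of E9, adjusted p = 1.41e-07). Grhl3 stood at 35.4, 46.7 and 29.2 CPM at E9, 0.223, 0.583 and 0 CPM in the dermis (adjusted p = 0.000152) and 261, 107 and 236 CPM at E13 (log2 fold change 2.44 ± 0.34, adjusted p = 0.00213). Grhl1 stood at 14.3, 10.1 and 7.35 CPM against 0.167, 0.4997 and 1.39 CPM (adjusted p = 0.0115), a call lost without E9 replicate 1 (adjusted p = 0.0591). E9 and E13 levels were close for Grhl2, which did not pass the test between stages (adjusted p = 0.443), and did not overlap for Grhl3.
The splicing regulators of epithelia were found with them. Esrp1 stood at 194, 169.8 and 164 CPM against 0.111, 1.08 and 0 CPM (adjusted p = 4.58e-05), and Esrp2 at 37.5, 29.98 and 4.68 CPM against 0.334, 0 and 0 CPM (adjusted p = 0.00144), lowest in E9 replicate 4. Gata3 stood at 32.4, 40.2 and 58.1 CPM against 2 dermal counts (a pooled ratio of 1222 with a 95% counting interval of 337 to 10108 in favour of E9, adjusted p = 6.52e-06). The forkhead gene Foxi2 stood at 35.1, 29.0 and 81.3 CPM with none (at least 879-fold higher at E9, adjusted p = 2.42e-05), highest in replicate 4. The homeobox gene Msx2 stood at 149, 136 and 91.8 CPM at E9, 0.668, 0.666 and 5.27 CPM in the dermis (adjusted p = 0.000592) and 16.0, 13.6 and 22.5 CPM at E13 (log2 fold change -2.85 ± 0.29, adjusted p = 0.000331). Dlx3, another homeobox gene of ectoderm, stood at 82.5, 92.5 and 78.2 CPM at E9 against 0.501, 0 and 3.47 CPM (adjusted p = 0.00159) and 41.6, 38.2 and 45.7 CPM at E13. Klf4, a factor of barrier formation, was the member lower at E9, at 5.76, 3.41 and 1.34 CPM against 115, 52.2 and 46.1 CPM in the dermis (adjusted p = 0.000190), and stood at 55.9, 79.0 and 106 CPM at E13 (log2 fold change 4.47 ± 0.50, adjusted p = 0.000542). Zfp750, a factor of terminal differentiation, had no E9 count and stood at 65.3, 37.4 and 27.5 CPM at E13 (at least 241-fold higher at E13, adjusted p = 0.000383).

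Promoters of the epithelial genes were read for the letters bound by the grainyhead and AP-2 factors, since Grhl2 and Tfap2a were both high at E9. The motifs were chosen after the expression values were seen, and the counts are a description. Of the 89 members of the epithelial lists that were higher at E9, 53 had a promoter in the RefSeq table of GRCm38.p6, and the 250 bases before each start site were searched on both strands. A gene was counted if any of its listed start sites had a match, so genes with several start sites had more chances. The grainyhead motif AACCNGTT, which reads AACNGGTT on the other strand, was found in 6 of the 53 (11.3%). It was found in 1.84% of the 9631 tested genes with a promoter and in 2% of all 27025 genes in the table. It was in 2.21% of all genes higher at E9 and 1.53% of all genes lower, among those with a promoter. Its palindromic form AACCGGTT, which is also a match to the wider motif, was in none of the 53 and in 0.249% of tested genes. The AP-2 motif GCCNNNGGC was in 17 of the 53 (32.1%), against 24.9% of tested genes. Promoter GC content averaged 59.2% in the members and 60.3% in tested genes. Genes with the grainyhead motif were Cgn, Rab25, Cd151, Frem2, Sfn and Satb1, which come from 6 different lists. Satb1, a chromatin factor of the epidermis and the only one not described above, stood at 99.1, 77.0 and 41.0 CPM at E9 against 9.68, 3.91 and 6.14 CPM (log2 fold change 3.45 ± 0.43, adjusted p = 0.000150). The 250 bases before a listed start site are shown for 4 of them, with the match in capitals, because they place the motif in a junction, a transport, a basement membrane and a suprabasal gene. All 4 genes lie on the minus strand, and each sequence is written 5′ to 3′ on the strand of the gene: Cgn at chr3:94786483-94786732, Rab25 at chr3:88548280-88548529, Frem2 at chr3:53657356-53657605 and Sfn at chr4:133602169-133602418 of GRCm38.p6.
Cgn: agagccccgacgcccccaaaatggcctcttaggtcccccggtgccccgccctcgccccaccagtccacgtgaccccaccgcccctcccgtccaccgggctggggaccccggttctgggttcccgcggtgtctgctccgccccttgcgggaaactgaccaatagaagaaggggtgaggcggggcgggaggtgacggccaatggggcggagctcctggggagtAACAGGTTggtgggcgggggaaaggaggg
Rab25: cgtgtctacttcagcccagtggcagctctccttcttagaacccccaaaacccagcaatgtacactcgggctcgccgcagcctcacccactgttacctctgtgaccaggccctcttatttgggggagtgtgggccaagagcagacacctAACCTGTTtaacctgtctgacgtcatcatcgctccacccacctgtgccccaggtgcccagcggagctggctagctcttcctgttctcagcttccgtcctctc
Frem2: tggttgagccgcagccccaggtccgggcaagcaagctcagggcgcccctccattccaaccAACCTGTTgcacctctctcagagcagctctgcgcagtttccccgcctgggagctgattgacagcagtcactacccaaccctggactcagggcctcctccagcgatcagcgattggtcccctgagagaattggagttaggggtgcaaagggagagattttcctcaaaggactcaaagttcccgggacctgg
Sfn: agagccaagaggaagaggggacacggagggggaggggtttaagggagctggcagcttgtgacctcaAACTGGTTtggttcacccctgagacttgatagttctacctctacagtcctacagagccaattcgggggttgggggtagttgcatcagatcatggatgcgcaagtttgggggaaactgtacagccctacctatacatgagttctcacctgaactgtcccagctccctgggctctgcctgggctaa
The match ends 22 bases before the listed start site in Cgn, 95 in Rab25, 183 in Frem2 and 177 in Sfn, so it holds no fixed place. The windows of Rab25 and Sfn adjoin the annotated 5′ ends of the genes, at 88548279 and 133602168. Those of Cgn and Frem2 lie inside the genes, whose annotated 5′ ends are at 94787725 and 53658593. A match of these letters is no evidence of binding, and no binding data were analysed here.

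Genes of the early embryo formed a second group that was high at E9. Of the 21 genes of that list, 15 had enough counts to be tested. A gene without dermal counts, as 6 were, could be tested only through its E9 counts and could not come out lower. Of the 15 tested genes, 14 were higher at E9 and none lower, beside 19.1% and 22.2% of all genes, with a median log2 fold change of 6.66. The marker gene Lin28a is counted among them and the list was chosen with earlier results known, so the count is a description. Arid3b, a DNA-binding protein of early tissues, stood at 203, 229 and 264 CPM against 2.89, 2.08 and 1.91 CPM in the dermis (log2 fold change 6.66 ± 0.25, adjusted p = 1.02e-07), and at 5.91, 22.8 and 18.3 CPM in E13 epidermis (log2 fold change -3.86 ± 0.41, adjusted p = 0.000671). Sall4 (at least 3204-fold higher at E9, adjusted p = 3.24e-07) and Lin28a belong to the same list. Lin28b, the relative of Lin28a, stood at 136, 109.7 and 114 CPM against 1.34, 0 and 0.0347 CPM (adjusted p = 0.000224). Igf2bp1, a let-7 target, stood at 888, 979 and 899 CPM against 139, 122 and 114 CPM (log2 fold change 2.88 ± 0.15, adjusted p = 5.31e-07). Trim71, another let-7 target, stood at 152, 171 and 253 CPM against 1.17, 1.92 and 0 CPM (adjusted p = 0.000206). The DNA methyltransferase gene Dnmt3b stood at 128, 152 and 180.4 CPM against 13.5, 11.8 and 8.15 CPM (log2 fold change 3.79 ± 0.26, adjusted p = 2.81e-06). Prtg, a surface protein of early embryos, stood at 405, 578 and 758 CPM against 2.28, 0.666 and 4.23 CPM (adjusted p = 2.22e-05), highest in replicate 4.
In E13 epidermis these genes were lower than at E9 as well: 9 of 15 tested were lower and none higher, beside 2.79% and 4.49% of all genes. Sall4 stood at 0, 0.953 and 0.987 CPM there (log2 fold change -7.79 ± 0.48, adjusted p = 1.51e-05). Dnmt3b stood at 41.6, 52.4 and 43.3 CPM (log2 fold change -1.74 ± 0.21, adjusted p = 0.000795) and Igf2bp1 at 462, 389 and 409.7 CPM (log2 fold change -1.13 ± 0.12, adjusted p = 0.000383), each below every E9 library. As the E13 epidermis shares the sort and RNA selection of the E9 libraries, the second comparison differs by stage alone as far as the labels go, though it reuses the E9 libraries. The posterior gene Cdx2 stood at 32.4, 27.6 and 6.01 CPM with no dermal count (at least 472-fold higher at E9, adjusted p = 0.000238), and was lowest in replicate 4. Among genes of pluripotent cells, Pou5f1 was detected at a low level, at 1.098, 0 and 6.24 CPM, highest in replicate 4. Dppa4, Dnmt3l and Tdgf1 had no E9 count.

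**Figure D3:**
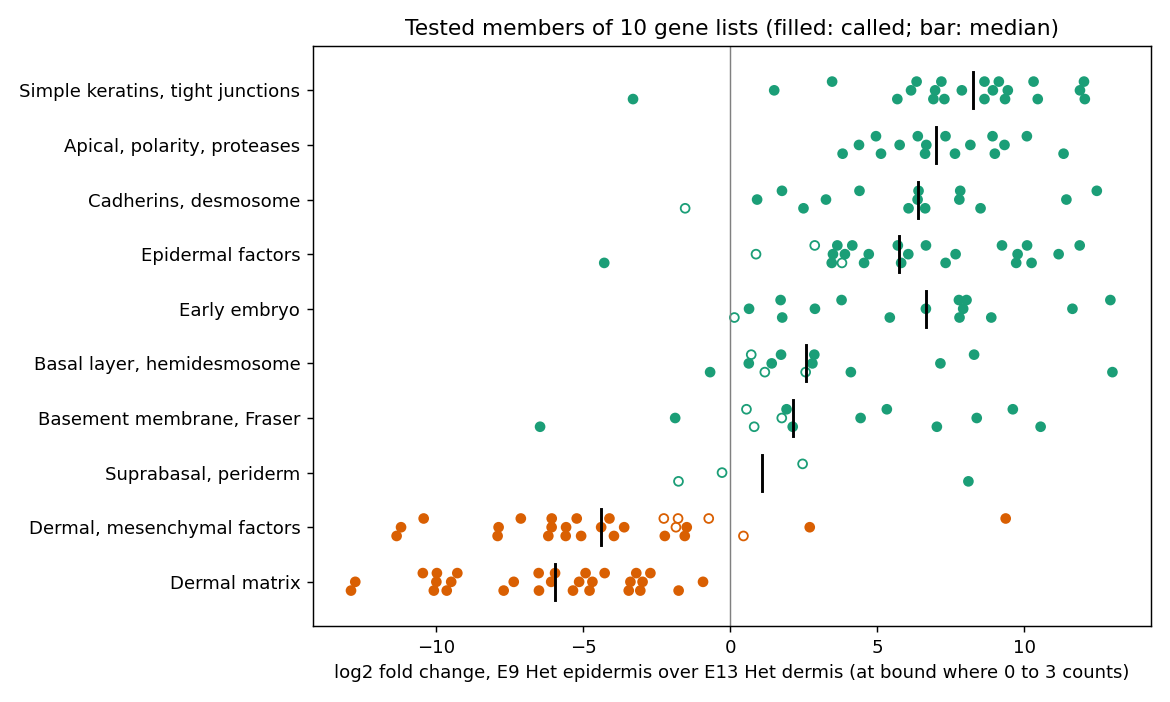
Log2 fold change of each tested member of 10 gene lists between E9 Het epidermis and E13 Het dermis, positive where higher at E9, with genes at 0 to 3 counts in a group held at the bound those counts allow; filled points were called at an adjusted p of 0.05 and bars mark medians. The tight junction, apical, adhesion and early embryo lists lie almost wholly above 0 and the dermal lists almost wholly below it, while the basal and basement membrane lists lie on both sides.

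Signalling genes were found on both sides. Among Wnt genes, 13 of 40 tested were higher at E9 and 11 lower (median log2 fold change -0.13), beside 19.1% and 22.2% of all genes. The ligand gene Wnt6 stood at 214, 228 and 179 CPM against 12.9, 10.99 and 12.6 CPM (log2 fold change 4.09 ± 0.19, adjusted p = 2.93e-07). Wnt7a stood at 74.3, 105 and 66.4 CPM (adjusted p = 5.52e-06) and Wnt7b at 48.0, 62.7 and 22.5 CPM (adjusted p = 0.000117), both with a few dermal counts in replicate 1 alone. Wnt11, a ligand known for signals without β-catenin, was on the dermal side, at 93.4, 102 and 103 CPM against 2.33, 6.64 and 3.12 CPM (adjusted p = 8.66e-06). Rspo1, an enhancer of the pathway, stood at 89.3, 86.9 and 96.1 CPM in the dermis against 5.08, 2.56 and 6.46 CPM (log2 fold change -4.28 ± 0.34, adjusted p = 7.21e-06). The inhibitor gene Dkk2 stood at 64.2, 38.1 and 62.9 CPM there with no E9 count (at least 342-fold lower at E9, adjusted p = 1.04e-05). The general target Axin2 stood at 154, 167 and 124 CPM at E9 and 269, 200.2 and 173 CPM in the dermis and did not pass the test (adjusted p = 0.0535), but was called lower at E9 with limma voom, TMM over the 6 libraries or no filter, or without E9 replicate 2 or dermal replicate 3 (adjusted p = 0.0326 to 0.0468).
In the BMP and TGF-β list, 11 of 30 tested were higher at E9 and 12 lower (median 0.12), beside 19.1% and 22.2% of all genes. Bambi, a decoy receptor, stood at 139, 102 and 91.8 CPM against 14.1, 12.7 and 12.6 CPM (log2 fold change 3.08 ± 0.24, adjusted p = 6.28e-06). Sostdc1, an extracellular antagonist, stood at 134, 131 and 104 CPM against 18.5, 16.1 and 13.6 CPM (log2 fold change 2.94 ± 0.22, adjusted p = 5.67e-06). The activin gene Inhba stood at 67.6, 52.9 and 52.7 CPM in the dermis with no E9 count (at least 337-fold lower at E9, adjusted p = 5.37e-06). Tgfbr2, the receptor that binds TGF-β, stood at 196, 158 and 154 CPM in the dermis against 9.33, 11.9 and 5.12 CPM (log2 fold change -4.25 ± 0.29, adjusted p = 3.23e-06). Id1, a target of BMP signals, was lower at E9, at 38.7, 32.7 and 28.7 CPM against 198, 229 and 162 CPM (log2 fold change -2.55 ± 0.20, adjusted p = 7.95e-06).

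Ligand and receptor genes of the PDGF pathway lay on opposite sides. Pdgfa stood at 246, 218 and 133 CPM at E9 against 2.23, 4.75 and 2.29 CPM (log2 fold change 6.06 ± 0.38, adjusted p = 1.82e-06). Pdgfc stood at 212, 199 and 206 CPM against 6.01, 2.33 and 4.61 CPM (log2 fold change 5.54 ± 0.31, adjusted p = 9.22e-07). The receptor gene Pdgfrb, which was not used in the sort, stood at 386, 322 and 287 CPM in the dermis against 27.6, 14.5 and 22.3 CPM (log2 fold change -3.95 ± 0.25, adjusted p = 1.89e-06). With the hedgehog genes, 6 of 16 tested were higher at E9 and 6 lower (median 0.37), beside 19.1% and 22.2% of all genes. The hedgehog co-receptor gene Boc was dermal, at 183, 111 and 164 CPM against 25.3, 26.2 and 26.3 CPM (log2 fold change -2.56 ± 0.23, adjusted p = 1.61e-05). The ligand gene Shh was low at E9, at 1.92, 5.79 and 10.9 CPM, and had no dermal count (at least 108-fold higher at E9, adjusted p = 0.00575).
Of 15 tested FGF genes 3 were higher and 4 lower (median -0.16), near the 19.1% and 22.2% of all genes. Fgfr2, the receptor of epithelia, stood at 444, 485 and 351 CPM against 134, 122 and 109 CPM (log2 fold change 1.81 ± 0.17, adjusted p = 2.45e-05), and Fgfr1, that of mesenchyme, at 104, 91.0 and 139 CPM against 536, 511 and 431 CPM (log2 fold change -2.15 ± 0.19, adjusted p = 1.66e-05). The ligand gene Fgf8 stood at 68.6, 25.4 and 33.6 CPM against 2 dermal counts (a pooled ratio of 1334 with a 95% counting interval of 368 to 11030.0 in favour of E9, adjusted p = 1.41e-05). Fgf7, a ligand made by mesenchyme, stood at 15.7, 19.4 and 17.1 CPM in the dermis with no E9 count (at least 101-fold lower at E9, adjusted p = 0.000205). The others called were the feedback genes Dusp6 and Spry2, lower at E9, and Fgf9, higher, the last lost without E9 replicate 1 (adjusted p = 0.0531).

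Of 13 tested Notch genes 4 were higher and 3 lower (median 0.34), beside 19.1% and 22.2% of all genes. The ligand gene Jag2 stood at 138, 142 and 117 CPM against 2.45, 2.33 and 1.91 CPM (log2 fold change 5.90 ± 0.25, adjusted p = 1.41e-07), and Jag1 at 56.0, 42.2 and 64.4 CPM against 18.9, 9.33 and 20.8 CPM (log2 fold change 1.73 ± 0.35, adjusted p = 0.00285). The target Hes1 was lower at E9, at 31.8, 15.3 and 10.2 CPM against 134, 158 and 190.5 CPM (adjusted p = 0.000188). Nrarp and Dll1 were the others higher at E9 and Hey2 and Rfng the others lower, but Rfng kept its call only without E9 replicate 4 among the 6 libraries left out in turn (adjusted p = 0.0535 to 0.0924 without the others).
The ectodysplasin pathway, which later patterns hair placodes, had E9 counts for all 7 listed genes and calls in both directions. Edar, its receptor, stood at 9.33, 15.0 and 14.9 CPM at E9 against 3 dermal counts (a pooled ratio of 248 with a 95% counting interval of 83.7 to 1211 in favour of E9, adjusted p = 0.00100) and at 64.6, 64.7 and 28.8 CPM in E13 epidermis. The ligand gene Eda was lower at E9, at 8.51, 6.47 and 6.68 CPM against 36.5, 28.8 and 43.4 CPM (log2 fold change -2.32 ± 0.35, adjusted p = 0.000511). The related receptor gene Tnfrsf19 was lower as well, at 112, 126 and 92.2 CPM against 284, 303 and 294 CPM (log2 fold change -1.41 ± 0.16, adjusted p = 8.23e-05). Of 7 genes, 2 were higher at E9, 2 lower and 3 not called (median -0.78), beside 19.1% and 22.2% of all genes, and the remaining call, Traf6, higher at E9, was lost without dermal replicate 3 (adjusted p = 0.0509).

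All 29 members of the dermal matrix list were lower at E9, beside 22.2% of all genes, with a median log2 fold change of -6.10 or, at bounds, -5.96. The summed level of the list was 45350.0 to 63770.0 CPM in the dermis and 2361 to 2615 CPM at E9. Col1a2 stood at 10388, 7566 and 8464 CPM against 76.3, 86.4 and 127 CPM (log2 fold change -6.51 ± 0.26, adjusted p = 1.02e-07). Postn, periostin, stood at 800.0, 1066 and 1111 CPM against 18.7, 14.3 and 14.5 CPM (log2 fold change -5.96 ± 0.22, adjusted p = 1.02e-07). Eln, elastin, stood at 512, 542 and 509.5 CPM against 0.823, 0.511 and 0 CPM (adjusted p = 1.02e-07). Dcn, decorin, stood at 983, 1305 and 1256 CPM against no count (at least 6957-fold lower at E9, adjusted p = 1.02e-07). Fn1, fibronectin, was the member with the smallest difference, at 1326, 1266 and 1314 CPM at E9 and 3479.7, 1683 and 2267 CPM in the dermis (log2 fold change -0.93 ± 0.23, adjusted p = 0.00904), and this call was lost with raw library totals (adjusted p = 0.161) or all 9 libraries in 1 fit (adjusted p = 0.0631). Its E9 level was above that of E13 epidermis, where it stood at 152, 400.1 and 258 CPM (log2 fold change -2.27 ± 0.31, adjusted p = 0.00373). With each library left out in turn, 27 to 29 of the 29 members were called.
Of 27 tested genes of the list of dermal and mesenchymal factors, 20 were lower at E9 and 2 higher, with a median of -4.39. Among all genes 22.2% were lower and 19.1% higher. Prrx1 stood at 614, 477 and 560.0 CPM against 5.22, 3.92 and 2.23 CPM (log2 fold change -7.13 ± 0.28, adjusted p = 1.02e-07). Tbx15, at 482, 402 and 442 CPM (at least 2624-fold lower at E9, adjusted p = 1.02e-07), and Twist2, at 430.3, 400.4 and 385 CPM (at least 2363-fold lower at E9, adjusted p = 1.02e-07), had no E9 count. Cdh11, a mesenchymal cadherin, stood at 914, 722 and 836 CPM against 13.0, 6.81 and 14.0 CPM (log2 fold change -6.19 ± 0.28, adjusted p = 2.16e-07). Vim, vimentin, stood at 1871, 1718 and 1587 CPM against 101, 58.6 and 86.2 CPM (log2 fold change -4.39 ± 0.22, adjusted p = 4.35e-07). Snai1, a repressor of E-cadherin, stood at 73.8, 68.7 and 62.8 CPM in the dermis against 0.823, 3.24 and 0 CPM (adjusted p = 0.000248). The 2 members higher at E9 are both known from early somites: Foxc1 stood at 11.5, 11.8 and 10.2 CPM against 1 dermal count (a pooled ratio of 663 with a 95% counting interval of 118 to 26334 in favour of E9, adjusted p = 0.000448), and Meox1 at 22.1, 29.6 and 31.4 CPM against 3.39, 4.25 and 5.06 CPM (log2 fold change 2.70 ± 0.42, adjusted p = 0.000585). The call of Meox1 was lost with all 9 libraries in 1 fit (adjusted p = 0.0637).

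Markers of other cells that could enter the sorts were counted in both groups. Skeletal and heart muscle genes summed to 58.4 to 280.2 CPM at E9 and 1.39 to 10.9 CPM in the dermis. Of 6 tested, 3 were higher at E9, beside 19.1% of all genes. Pax3, also known from somites, neural tube and neural crest, stood at 36.1, 21.3 and 12.3 CPM against 1 dermal count (a pooled ratio of 1477 with a 95% counting interval of 264 to 58464 in favour of E9, adjusted p = 4.18e-05), and its relative Pax7 at 8.65, 5.11 and 2.45 CPM with none (at least 116-fold higher at E9, adjusted p = 0.00620). Ttn, the muscle protein titin, stood at 32.1, 25.2 and 167 CPM against 4.01, 0.999 and 0 CPM (adjusted p = 0.0148), a call lost without E9 replicate 4 (adjusted p = 0.0675) or dermal replicate 2 (adjusted p = 0.0913) and with no filter on low counts (adjusted p = 0.0986). Actc1 (2.06, 3.07 and 45.0 CPM), Acta1 (0, 0 and 20.05 CPM) and Myh3 (0, 0 and 24.1 CPM) were high in replicate 4 alone, whereas the defining factors Myod1 and Myog had no E9 count. Cartilage and somite genes summed to 445 to 554 CPM at E9 and 30.2 to 64.4 CPM in the dermis, almost wholly from 2 genes at E9. Col2a1 stood at 406, 386 and 472 CPM against 4.79, 1.67 and 14.2 CPM (adjusted p = 0.000230), and Sox9, which epithelia also use, at 37.9, 53.1 and 69.7 CPM against 4.45, 4.41 and 9.53 CPM (log2 fold change 3.11 ± 0.41, adjusted p = 0.000226). Pax1 was lower at E9, a call lost without dermal replicate 2 (adjusted p = 0.0549). The somite genes Tbx6, Msgn1 and Tcf15 and the cartilage genes Acan and Matn1 had no E9 count.
Neural genes summed to 60.5 to 90.0 CPM at E9 and 53.7 to 81.7 CPM in the dermis. Of 10 tested, Pax6 and Sox1 were higher at E9 and Stmn2 lower. Beside 19.1% higher and 22.2% lower among all genes, these calls are no result about neural genes as a group. Pax6 stood at 4.53, 3.58 and 12.9 CPM with no dermal count (at least 124-fold higher at E9, adjusted p = 0.00384), while the call of Sox1 was lost without E9 replicate 4 or dermal replicate 2 or 3 (adjusted p = 0.0536 to 0.0768). In the neural crest and melanocyte list, Erbb3 and Kit were higher among 6 tested, beside 19.1% of all genes. Kit lost its call without E9 replicate 1 or 4 or any dermal library (adjusted p = 0.0749 to 0.139). Erbb3, also known from epithelia, stood at 121, 119 and 125 CPM against 1.002, 3.91 and 0 CPM (adjusted p = 0.00147), while Sox10 read 0, 1.53 and 3.56 CPM and Foxd3 had no E9 count. Globin and other red cell genes summed to 0.274, 0.681 and 60.1 CPM over the E9 libraries, the last being replicate 4, and to 236 to 1518 CPM in the dermis. Of 5 tested, Alas2, Epor and Hbb-y were lower at E9, beside 22.2% of all genes. The list had no call without dermal replicate 2, 5 lower without E9 replicate 4 and 1 or 2 lower without any other library. Macrophage genes summed to 1.37 to 2.73 CPM at E9 and 80.8 to 134 CPM in the dermis. Of 10 members 8 were tested, and 7 of them were lower at E9, beside 22.2% of all genes. Of the 10, 6 had no E9 count, and such genes could be tested only through their dermal counts. The macrophage receptor gene Mrc1 stood at 40.2, 25.5 and 36.7 CPM in the dermis with no E9 count (at least 209-fold lower at E9, adjusted p = 2.83e-05). Endothelial genes summed to 15.2 to 60.8 CPM at E9 and 36.0 to 45.5 CPM in the dermis. Of 6 tested, 1 was called, lower at E9, near the 22.2% of all genes. It was Cdh5, which had no E9 count. None of the 10 endoderm genes had enough counts to be tested. The part of these cells in the results above was not tested.

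Hox genes, which mark position along the body, varied among the E9 libraries. Of 14 tested genes of groups 1 to 5, 2 were higher at E9, and of 15 of groups 6 to 13, Hoxb8, Hoxd10 and Hoxa7 were higher and Hoxd8 lower, beside 19.1% higher and 22.2% lower among all genes tested. Against that background these counts are no result about Hox genes as a group. Hoxb1, one of the higher genes, stood at 10.98, 5.11 and 13.4 CPM against 2 dermal counts (a pooled ratio of 283 with a 95% counting interval of 77.2 to 2359 in favour of E9, adjusted p = 0.00185). Replicate 4 held less of many later-numbered genes: Hoxc8 stood at 106, 140.4 and 29.4 CPM at E9, Hoxc10 at 89.6, 47.9 and 1.78 CPM and Hoxa5 at 35.3, 15.0 and 0 CPM. Summed over groups 6 to 13, the E9 libraries held 549, 444 and 69.9 CPM and the dermal libraries 246, 299 and 231 CPM. Without replicate 4, 5 genes of groups 1 to 5 and 8 of groups 6 to 13 were higher at E9, and without replicate 2 none of groups 6 to 13 was called. With any one dermal library left out, 2 of groups 6 to 13 were higher and none lower. Hoxa7 and Hoxd10 lost their calls without E9 replicate 1 or 2 or any one dermal library (adjusted p = 0.0923 to 0.214 for Hoxa7 and adjusted p = 0.0558 to 0.197 for Hoxd10), and Hoxb8 without E9 replicate 2 (adjusted p = 0.0735).

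**Figure D4:**
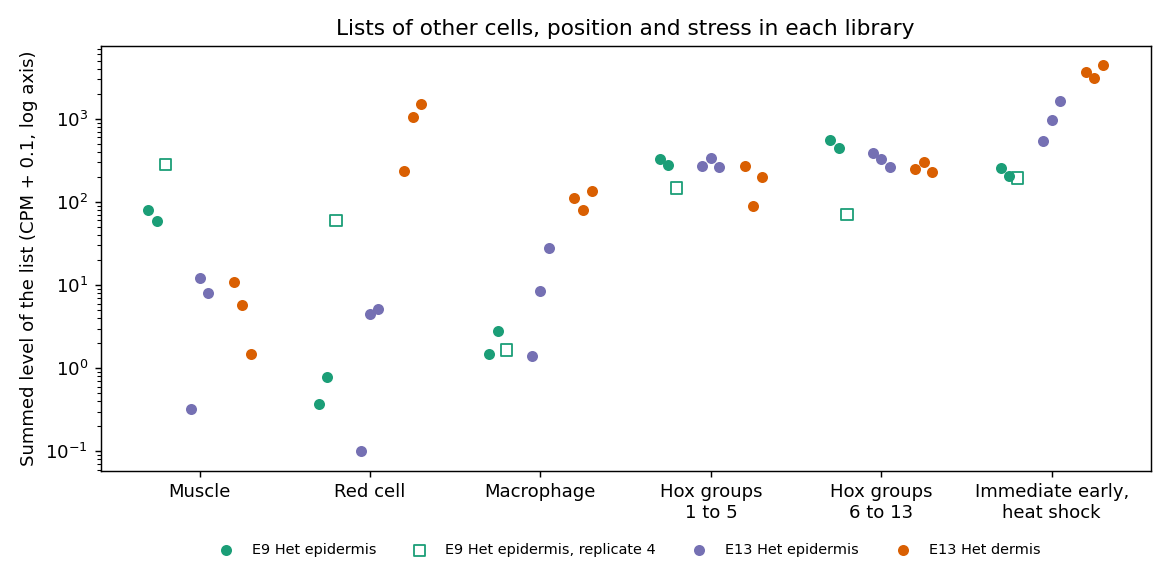
Summed level, in CPM on a log axis with 0.1 added, of 6 gene lists in each library of E9 Het epidermis (replicates 1, 2 and 4), E13 Het epidermis and E13 Het dermis. E9 replicate 4, drawn as an open square, has the highest E9 sums of muscle (280.2 CPM) and red cell genes (60.1 CPM) and the lowest of Hox groups 6 to 13 (69.9 CPM).

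Immediate early and heat shock genes were low at E9. Of 17 tested, 16 were lower and none higher, beside 22.2% and 19.1% of all genes, with a median log2 fold change of -4.43. The list summed to 194 to 253 CPM at E9, 535 to 1633 CPM in E13 epidermis and 3114 to 4405 CPM in the dermis. Fos stood at 489.8, 457 and 664 CPM in the dermis, 4.53, 4.60 and 1.56 CPM at E9 (log2 fold change -7.18 ± 0.34, adjusted p = 2.88e-07) and 54.1, 137 and 286 CPM in E13 epidermis. Jun, its partner in the AP-1 factor, stood at 703, 540.3 and 555 CPM in the dermis against 33.8, 21.8 and 43.9 CPM (log2 fold change -4.18 ± 0.26, adjusted p = 1.68e-06). The orphan receptor gene Nr4a1 stood at 515, 254 and 639 CPM against 2.88, 4.43 and 1.78 CPM (log2 fold change -7.24 ± 0.45, adjusted p = 4.83e-06). Genes of this list are known to respond to tissue dissociation and sorting, and since the groups differ in stage and sort the sources of this difference cannot be told apart.
Of 29 tested cell cycle genes, 9 were higher at E9, 2 lower and 18 not called, beside 19.1% higher and 22.2% lower among all genes, with a median log2 fold change of 0.18. Its calls in both directions together were near the 41.2% of all genes. The proliferation marker Mki67 stood at 1823, 1956 and 1903 CPM against 489, 431 and 516 CPM (log2 fold change 1.98 ± 0.14, adjusted p = 3.43e-06). Mcm7, part of the replication helicase, stood at 306, 289 and 259.7 CPM against 147, 124 and 136 CPM (log2 fold change 1.07 ± 0.15, adjusted p = 0.000278). Pcna, the replication clamp, ran the other way, at 162, 159 and 139.9 CPM against 242, 460.4 and 354 CPM (log2 fold change -1.20 ± 0.22, adjusted p = 0.00166), as did Ccna2, whose call was lost without dermal replicate 3 (adjusted p = 0.0533). With raw library totals 15 of the 29 were higher and 1 lower, so the balance of this list rests on the scaling.

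Of 13 tested genes of glucose use and hypoxia, 4 were higher, among them Pfkl and Aldoa, and Hk1 was lower (median 0.22), beside 19.1% and 22.2% of all genes. The call of Aldoa was lost without any one E9 library or dermal replicate 3 (adjusted p = 0.0666 to 0.0954). The glucose transporter gene Slc2a1 stood at 380.0, 437 and 555 CPM against 59.9, 48.0 and 57.1 CPM (log2 fold change 3.05 ± 0.19, adjusted p = 1.63e-06). The hexokinase gene Hk2 stood at 143, 126 and 111 CPM against 27.5, 21.2 and 20.8 CPM (log2 fold change 2.45 ± 0.21, adjusted p = 1.41e-05).
Imprinted genes were mostly higher in the dermis: 9 of 12 were lower at E9, and Peg10, Grb10 and Igf2r were higher (median -0.96), beside 22.2% and 19.1% of all genes. Cdkn1c, a cell cycle inhibitor, stood at 81.8, 74.4 and 89.5 CPM against 749, 693 and 740.1 CPM (log2 fold change -3.15 ± 0.15, adjusted p = 3.24e-07). Plagl1, a zinc finger factor, stood at 47.1, 43.4 and 45.9 CPM against 559.6, 238 and 424 CPM (log2 fold change -3.16 ± 0.29, adjusted p = 2.33e-05). Peg10, a gene derived from a retrotransposon, stood at 1386, 1655 and 1271 CPM at E9 against 144, 90.1 and 139.9 CPM (log2 fold change 3.53 ± 0.22, adjusted p = 1.47e-06). With raw library totals 6 of the 12 were lower at E9.

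Transcripts that carry no poly(A) tail also differed between the groups, and RNA selection, tissue and sort cannot be told apart in this difference. Of 54 tested replication-dependent histone genes, 50 were higher at E9 and none lower, beside 19.1% and 22.2% of all genes. The median log2 fold change of the histone genes was 5.80. They summed to 4442 to 5367 CPM at E9, 3067 to 3794 CPM in E13 epidermis and 58.5 to 234.7 CPM in the dermis. Another 41 tested genes were of other RNAs without tails, chosen by symbol, the ribosomal RNA precursor Rn45s among them. Of these 41, 22 were higher and 1 lower, beside the same shares of all genes. Rn45s itself held a larger share of gene counts in the dermis, 11.2% to 30.7% against 4.45% to 9.69% at E9. Leaving out these 201 genes, tested or not, before scaling gave 2610 genes higher at E9 and 2689 lower.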

How the data were processed

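The series holds RNA-seq of skin cells sorted from ΔNp63-GFP Het mouse embryos, of which 9 libraries were used here, 3 each of E9 epidermis, E13 dermis and E13 epidermis. The authors deposited raw counts of reads per gene symbol, 1 table per library. Per the submitters' processing notes, TopHat2, Bowtie2, HTSeq and the build mm10 were used. The counting's strand setting and the annotation are not given in the sources used here, so reads of overlapping and antisense genes cannot be told apart. This touches 25 of the 179 genes with a value tested here, among them Cldn3, Tjp3, Itgb4, Dst, Esrp2, Gata3, Zfp750, Shh, Wnt7b, Pax6, Mcm7 and Ccna2, each of which overlaps another counted gene. The 5 summary lines at the end of each deposited count table were left out of totals and tests.
Counts were scaled by TMM over the 9 libraries. Genes with low counts in the 6 libraries compared were dropped by filterByExpr. A gene with no count in 1 group passes this filter only through the other group, so it can be called in 1 direction alone. The groups (n = 3) were compared with edgeR's quasi-likelihood test (edgeR 4.0.16, R 4.3.3). P-values were adjusted by Benjamini-Hochberg over all genes tested, and an adjusted p under 0.05 was called. The second comparison, E13 over E9 epidermis, reuses the E9 libraries, so its values are set beside those of the first without a test between them. Fitting was tested on simulated data. Alternative tests were DESeq2 1.42.0 and limma 3.58.1 with voom and a quality weight for each library, called limma voom here. Other alternatives were other scalings and filters, a threshold of 2-fold, all 9 libraries in 1 fit and removal of RNAs lacking poly(A) tails. The last were removal of Rn45s and Lars2 (chosen after seeing the data), a block on replicate number, and each library left out in turn.
The comparison and the 30 gene lists were chosen with earlier results of these data known. Marker genes that belong to a list are counted in it, so the counts over lists are a description. Genes were named by rule: the sorted and marker genes, the 10 highest and 10 lowest by fold among called genes whose mean reached 10 CPM in a group, whose libraries did not overlap and which have an established name, any member of the 7 epithelial lists, and from each other list at most 4, taken by adjusted p. Named after their values were seen were Acta1, Aldoa, Axin2, Ccna2, Cdx2, Dkk2, Dll1, Dnmt3b, Dusp6, Eln, Fgf9, Fn1, Foxc1, Hoxc10, Hoxc8, Id1, Lin28b, Meox1, Myh3, Nrarp, Pcna, Pou5f1, Prtg, Rfng, Shh, Snai1, Sox10, Spry2, Trim71, Vim and Wnt7b. Some genes are named for a count of 0 alone. Positions and promoters came from RefSeq tables of GRCm38.p6, in which 21567 of the 23432 symbols matched directly and 1687 by a synonym. The ATAC-seq and ChIP-seq samples of the series were not analysed here, and results for some genes that the rule names are not reported here.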

Additional observations from a re-analysis of the deposited data

How the results depend on the processing

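Between E9 epidermis and E13 dermis, 5381 genes were called (2487 higher at E9, 2894 lower). DESeq2 called 5944 and limma voom 6644, and DESeq2's size factors, TMM over the 6 libraries, the absence of a filter, a minimum mean of 5 CPM, all 9 libraries in 1 fit, removal of RNAs lacking poly(A) tails and removal of Rn45s and Lars2 (chosen after seeing the data) gave 4612 to 5421. Raw library totals lowered the genes called lower to 1840, and a 2-fold threshold left 2363 called, 1038 higher and 1325 lower. With each library left out in turn, 4234 to 5771 were called, 1884 to 2488 higher and 2251 to 3283 lower. Of the 167 called genes named for this comparison, 149 kept their call without each library in turn and 152 under the other settings except the 2-fold threshold and the block, and none changed direction. Krt5 (adjusted p = 0.112) and Ttn (adjusted p = 0.0986) lost theirs with no filter, and Meox1 (adjusted p = 0.0637) and Fn1 (adjusted p = 0.0631) in the fit of all 9 libraries. Direction turned for 2 genes that were not called, Col17a1 without E9 replicate 1 and Krt14 without E9 replicate 2: with each library left out the log2 fold change of Col17a1 ran from -0.36 to 1.91 and that of Krt14 from -0.082 to 1.71. The cause was not tested. Itgb4, Axin2 and Tgm1, which were not called, gained a call under some settings.
Between E13 and E9 epidermis the count depended more on the choices: 890 genes called (549 higher at E13, 341 lower) became 1564 with DESeq2 (872 and 692), 1472 with limma voom (882 and 590) and 245 at the 2-fold threshold (170 and 75). With each library left out, 439 to 900 were called, 311 to 547 higher and 128 to 353 lower, the count being 439 without E9 replicate 2 and 507 without E9 replicate 1, and 207 genes being called lower without E9 replicate 4. Of 26 named genes called there, 21 kept their call without each library, and Trp63 (adjusted p = 0.247) and Tfap2b (adjusted p = 0.0566) lost theirs with all 9 libraries in 1 fit.
The groups share replicate numbers 1 and 2. Deviations from the group means of same-numbered libraries correlated at 0.00848 and 0.0244 between E9 epidermis and dermis and at -0.000352 and 0.0167 between the epidermal stages, and no label ties a number to a litter or day. With the replicate block, 4953 genes were called between E9 epidermis and dermis (2186 higher, 2767 lower) and 583 between the stages (332 higher, 251 lower). Of the named genes, 162 of 167 and 26 of 26 kept their call, while Itgb4 (adjusted p = 0.0206) became called against the dermis and Krt18 (adjusted p = 0.000106) and Krt8 (adjusted p = 0.00713) between the stages. Depth limits the low genes: at E9 a total of 3 counts over the group is 0.17 CPM, so an absence there is an absence above that level only.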

Other observations

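The E13 epidermal libraries, which served here as a later reference for the E9 levels, differed among themselves in the genes of simple epithelia. This was seen in the values and not looked for, and the genes given were chosen after that. Krt8 read 65.5, 21.0 and 606 CPM in replicates 1, 2 and 3, Krt18 read 28.5, 25.1 and 398 CPM, Krt19 read 81.9, 23.3 and 332 CPM and Krt7 read 65.5, 51.1 and 143 CPM. In all 4 keratins replicate 3 was the highest. Summed over the simple keratin and tight junction list, the E13 epidermal libraries held 1487, 1153 and 3337 CPM and the E9 libraries 2789, 2915 and 3050 CPM. Neither Krt8 nor Krt18 was called between the stages, and both were called lower at E13 without replicate 3 (log2 fold change -3.35 and -3.85, edgeR adjusted p = 0.0319 and 1.39e-06). The source of the difference between the libraries was not tested.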
